A study of Zea mays with 42 samples.

Results

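The data described here are the 6 arrays of maize embryos collected at 15 and 10 days after pollination (DAP), 3 arrays at each age, out of the 42 arrays of a tissue series from the inbred line B73. The arrays were taken by their labels, and every probe set other than the Affymetrix controls was compared, 17621 in all. The 15 DAP embryos and the 10 DAP embryos were both of B73, untreated and grown under ordinary farm practice, and the labels give the 3 arrays of each age as biological replicates without saying how many embryos or ears went into each. Nothing says that the replicates came from separate plants. The p-values measure the spread between arrays of the same tissue, estimated over all 42 arrays and not from these 6 alone. The other arrays hold later embryos (20 and 25 DAP), endosperm of all 4 ages, and 6 non-seed tissues (leaf, silk, ear, root, stem and stem tip), also with 3 arrays each. The series was made to find genes that differ between seed and non-seed tissues. No statement of its purpose names the step between 10 and 15 DAP in the embryo. Each array gave 1 signal per probe set, a linear brightness value made with MAS5, and levels are given in these units. A signal under 100 is treated as too low to be ordered.

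A maize embryo first lays down its shoot and root axis and its large single cotyledon, the scutellum, by cell division. It then turns to maturation, in which the scutellum stores globulins and oil, abscisic acid and the regulator vp1 switch on late embryogenesis abundant (LEA) proteins, and the tissue prepares for drying and germination. The endosperm lies against the embryo and follows another course, filling with zeins and starch. A young embryo is small and soft, and endosperm cells can cling to it when it is dissected.

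The labels were checked first against genes that mark each tissue. The summed signal of 5 embryo genes (glb1, glb2, ole16, vp1 and EMB5) was 36588 to 41294 on the 15 DAP embryo arrays and 26910.2 to 30718 on the 10 DAP embryo arrays, against 3906 in 15 DAP endosperm and 8169.5 in 10 DAP endosperm (means of 3 arrays). The embryo arrays thus carried the embryo genes at levels well above endosperm at both ages.

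Endosperm genes were also present on the embryo arrays, and at very different levels between arrays. This check used 21 probe sets with a signal of at least 1000 on all 6 endosperm arrays of 10 and 15 DAP. They also had to be under 100 on all arrays of older embryos and non-seed tissues. No array of the 10 and 15 DAP embryos was used in this choice. Their median signal was 1.46%, 2.91% and 1.07% of the endosperm level in replicates 1, 2 and 3 of the 15 DAP embryo, against 19.5%, 9.44% and 10.8% in replicates 1, 2 and 3 of the 10 DAP embryo. All 10 DAP embryo arrays lay above all 15 DAP embryo arrays in this median, with replicate 1 highest at 10 DAP and replicate 2 highest at 15 DAP. Of the 21 probe sets, 16 were called lower in 15 DAP embryo and none was called higher, against 1.87% and 3.64% of all probe sets. Because the choice required a low signal in older embryos, it favours falls, and the count is a description only. The same 2 arrays stood apart in the starchy endosperm markers fixed for this check (15 genes, among them zeins, o2, PBF, sh2, bt2 and wx1). Their summed signal was 3.20%, 17.3% and 3.13% of the level in 15 DAP endosperm for replicates 1, 2 and 3 of the 15 DAP embryo. For replicates 1, 2 and 3 of the 10 DAP embryo it was 43.1%, 18.0% and 21.6% of the level in 10 DAP endosperm. The endosperm sum itself was 185169 at 15 DAP and 101912.5 at 10 DAP, so the percentages have different bases. In signal, replicate 2 of 15 DAP had 31946, above replicates 2 and 3 of 10 DAP (18360 and 21997) but below replicate 1 (43928). Replicates 1 and 3 of 15 DAP had 5919 and 5788. The 2 checks are not separate, since sh2, PBF, o2 and z1C2 have probe sets among the 21 and are also among the 15 genes. fie1, described below, is among the 21 as well. In bulk tissue fewer cells of a type and less RNA per cell cannot be told apart. The main results that turn on these genes are therefore given below with each array's value, and again without replicate 2 of the 15 DAP embryo and replicate 1 of the 10 DAP embryo. That pair was picked after seeing the signal of endosperm genes. For such genes, smaller SE and p-values without the pair follow in part from the choice. They are a description and not firmer evidence of a fall.

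**Figure D1:**
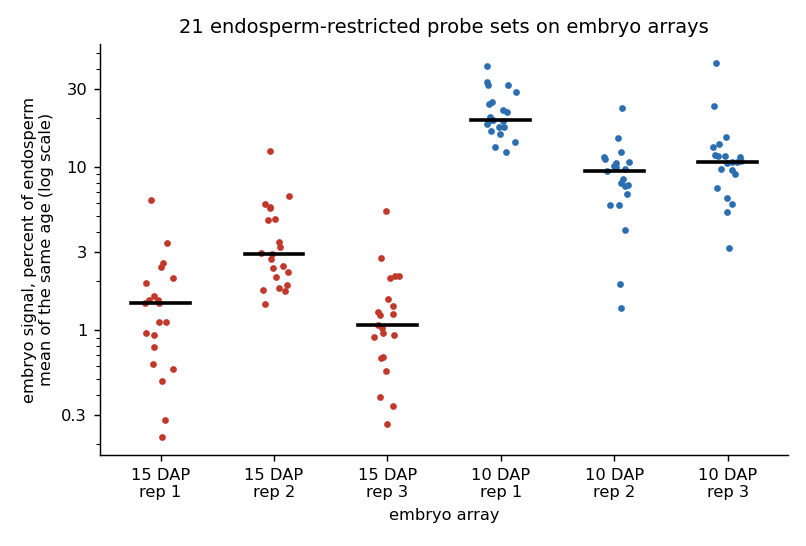
Signal of 21 endosperm-restricted probe sets on the 3 arrays of 15 DAP embryo (red) and the 3 arrays of 10 DAP embryo (blue), as a percent of the mean endosperm signal of the same age, on a log scale. Each point is 1 probe set and each bar the median, which lies between 1.07% and 2.91% at 15 DAP and between 9.44% and 19.5% at 10 DAP.

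The markers of the transfer layer and of the embryo-surrounding region had far lower sums in endosperm than the starchy endosperm markers. Summed, 5 markers of the transfer layer were at 27.3% to 31.7% of the endosperm level on the 15 DAP embryo arrays and 27.5% to 50.04% on the 10 DAP embryo arrays, with an endosperm sum of 1791 at 15 DAP and 2332 at 10 DAP. The 3 markers of the embryo-surrounding region, the endosperm cells that line the embryo cavity, were at 32.3% to 36.4% on the 15 DAP embryo arrays and 57.7% to 80.8% on the 10 DAP embryo arrays, with endosperm sums of 372 and 449. Of the 5 markers of the basal endosperm transfer layer, the cells that take up sugars from the mother plant, only bap2 was called lower in 15 DAP embryo, and INCW2 stayed under 100 on all 6 embryo arrays. MRP1 gave the largest part of the embryo sums. It averaged 293 and 327 in 15 and 10 DAP embryo, against 389 and 210 in endosperm. The other transfer layer markers averaged lower in embryo than in endosperm at both ages. Of the 3 markers of the embryo-surrounding region, ESR1 was called lower (log2 -1.95, SE 0.34, adjusted p = 6.28e-05, or -1.14 with signals under 100 taken as 100), with signals of 64.3, 55.5 and 51.6 in 15 DAP embryo, against 177, 211 and 284 in 10 DAP embryo. The other markers, ESR1c1 and ae3, stayed under 100 on all 6 arrays. The 3 aleurone markers (Nkd1, cr4 and c1) were not called, and summed to 4718 and 4350 in 15 and 10 DAP endosperm. The embryo arrays had 80.9% to 86.0% of that level at 15 DAP and 84.3% to 94.0% at 10 DAP. This sum mixes genes that go opposite ways. cr4 averaged 1158 and 1103 in 15 and 10 DAP embryo, above endosperm (332 and 388). Nkd1 (2475 and 2368, against 3748 and 3460) and c1 (335 and 351, against 638 and 502) were below endosperm. The ovule genes ZAG1 and zag2 stayed under 100 on all 6 arrays, while p1, the other maternal marker, averaged 463 in 15 DAP embryo and 454 in 10 DAP embryo and was not called on this probe set. In endosperm p1 averaged 359 and 482 at 15 and 10 DAP.

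Between the ages, 641 probe sets were called higher in 15 DAP embryo (3.64% of the 17621 tested) and 329 were called lower (1.87%), so 970 (5.5%) changed by at least 2-fold at an adjusted p under 0.05 (limma, Benjamini-Hochberg). The 3 arrays of 15 DAP embryo lay above all 3 arrays of 10 DAP embryo in 4717 probe sets (26.8%) and below them in 4044 (22.9%). With arrays centred on their hybridization controls the counts were 482 higher and 379 lower, so the share of rises among the calls was 56.0% instead of 66.1%. Over all 17621 the median log2 fold change was -0.0024. Arrays of 1 age correlated at r = 0.984 to 0.990 at 15 DAP and 0.990 to 0.993 at 10 DAP (log2 signals across probe sets, which are not independent replicates), against 0.958 to 0.973 between the ages. The 3′ to 5′ ratio of the Gapdh control probes, a sign of RNA integrity, was 1.21 on the log2 scale for replicate 1 of 15 DAP embryo and 0.87 to 1.04 on the other 5 arrays. For the actin control probes it was 2.67, 2.28 and 2.18 in replicates 1, 2 and 3 of 15 DAP embryo. In replicates 1, 2 and 3 of 10 DAP embryo the actin ratio was 1.90, 2.02 and 2.19. Of the called probe sets, 60 of the rises and 72 of the falls carry a gene name, since the gene table given for the array names 1452 probe sets. The named genes are therefore a part of what changed.

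**Figure D2:**
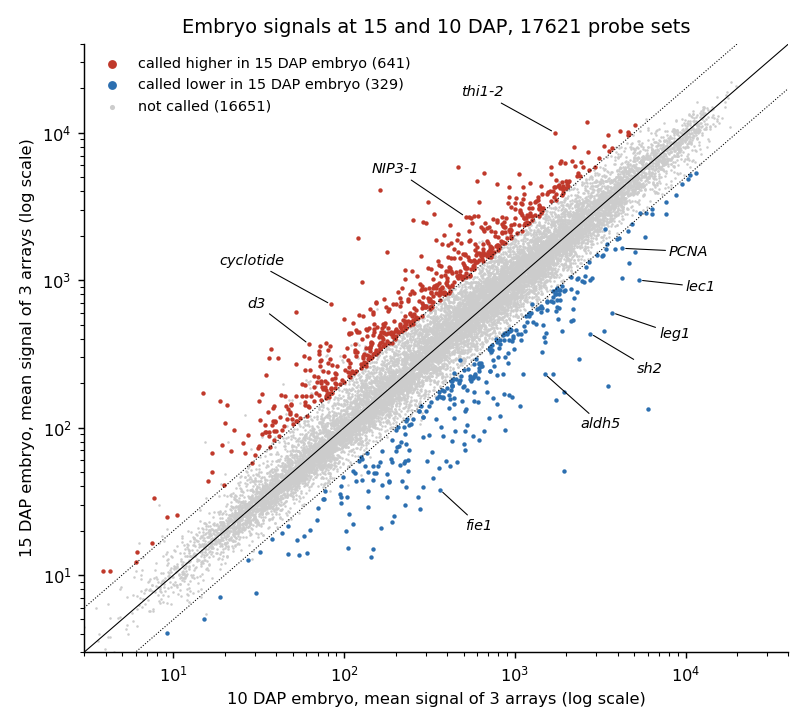
Mean signal of 3 arrays of 15 DAP embryo against the mean of 3 arrays of 10 DAP embryo for 17621 probe sets, both axes on a log scale. Red points are the 641 probe sets called higher in 15 DAP embryo and blue points the 329 called lower; the solid line marks equal signal and the dotted lines a 2-fold difference.

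The rising probe sets had higher medians still in older embryos. The median signal of the 641 rising probe sets (median over probe sets of the mean over arrays on the log scale) in embryo was 291 in the 10 DAP arrays, 805 at 15, 979 at 20 and 1093 at 25 DAP. In endosperm the same probe sets had medians of 225 at 10 DAP and 259 at 15 DAP. The 10 and 15 DAP embryo values were used to choose these probe sets, and the older embryos and the endosperm were not.

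The largest rises among named genes included enzymes of vitamin B1 and gibberellin synthesis, a malate synthase, a membrane channel and a phytase. The cyclotide gene, named for a family of small cyclic plant peptides, had signals of 561, 742 and 751 in 15 DAP embryo, against 89.1, 91.3 and 70.4 in 10 DAP embryo (log2 fold change 3.03, SE 0.32, adjusted p = 2.38e-08). The log2 value was 2.76 with signals under 100 taken as 100. Its signal went on to a mean of 2419.8 at 20 DAP and 3633 at 25 DAP, and was 20.1 in 15 DAP endosperm. The 2 thiamine thiazole synthase genes, thi1-2 and thi1, which make the thiazole part of vitamin B1, both rose. thi1-2 had 9768, 9843 and 10457 in 15 DAP embryo, against 2189, 1862 and 1078 in 10 DAP embryo (log2 2.61, SE 0.35, adjusted p = 1.5e-06). thi1 had 579, 497 and 556 in 15 DAP embryo, against 109.7, 111 and 80.1 in 10 DAP embryo (log2 2.45, SE 0.34, adjusted p = 2.38e-06), and its mean was 4516 at 20 DAP. At both genes the arrays of the 2 ages were far apart. glu2, a beta-glucosidase, had 158, 131 and 164 in 15 DAP embryo, against 18, 22.1 and 15.9 in 10 DAP embryo (log2 3.02, SE 0.39, adjusted p = 5.72e-07), but all its 10 DAP values are under 100, and with signals under 100 taken as 100 the log2 value was 0.59 and the call was lost.

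Gibberellin and auxin genes moved too. d3, the cytochrome P450 (CYP88A) that oxidises ent-kaurenoic acid on the way to gibberellin, had 347, 400.4 and 357 in 15 DAP embryo, against 63.7, 74.2 and 48.4 in 10 DAP embryo (log2 2.59, SE 0.25, adjusted p = 2.11e-09, or 1.88 with signals under 100 taken as 100). In 15 DAP endosperm its mean was 18.3. an1, which makes the gibberellin precursor at the first committed step, had 124, 95.1 and 112 in 15 DAP embryo, against 28.6, 47.2 and 42.5 in 10 DAP embryo (log2 1.51, SE 0.38, adjusted p = 0.00347), a call lost with signals under 100 taken as 100 (0.16). abp1, an auxin-binding protein, had 6105, 7019 and 6289 in 15 DAP embryo, against 2085, 2375 and 2019.8 in 10 DAP embryo (log2 1.58, SE 0.29, adjusted p = 0.000154). The auxin synthesis gene yuc moved the other way, with 212, 303 and 180.2 in 15 DAP embryo, against 1955, 1142 and 1926 in 10 DAP embryo (log2 -2.85, SE 0.19, adjusted p = 9.11e-13). yuc was called higher in 10 DAP endosperm than in 10 DAP embryo, with an endosperm mean of 6351, and was at log2 -2.92, SE 0.22, adjusted p = 1.7e-11 without the pair of arrays that stand apart. Of the 24 probe sets of the auxin, cytokinin and gibberellin list, 3 were called higher and 1 lower, against 3.64% and 1.87% of all probe sets. The cytokinin receptor hk2 (log2 0.94, SE 0.19, adjusted p = 0.0005) and the response regulator RR5 (log2 0.82, SE 0.13, adjusted p = 1.98e-05) passed the adjusted p but not the 2-fold limit.

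Genes of oil use, membrane transport and phosphate release rose as well. mas1, malate synthase, an enzyme of the glyoxylate cycle that turns stored oil into sugar precursors in seedlings, had 1818, 1915 and 1916 in 15 DAP embryo, against 391, 359.9 and 288 in 10 DAP embryo (log2 2.45, SE 0.48, adjusted p = 0.000253). Its endosperm mean was 807 at 15 DAP and 189 at 10 DAP. NIP3-1, a membrane channel of the aquaporin family, had 2754, 2669.9 and 2649.6 in 15 DAP embryo, against 540.1, 578 and 426 in 10 DAP embryo (log2 2.40, SE 0.35, adjusted p = 3.93e-06), with means of 3293 at 20 DAP and 3373 at 25 DAP. phyS11, a phytase, which frees phosphate from phytate, had 311, 354 and 349.7 in 15 DAP embryo, against 79.3, 81.7 and 80.7 in 10 DAP embryo (log2 2.07, SE 0.19, adjusted p = 1.17e-09, or 1.76 with signals under 100 taken as 100). esp1 had 5579, 6809.7 and 6791 in 15 DAP embryo, against 1847, 2847 and 913 in 10 DAP embryo (log2 1.92, SE 0.46, adjusted p = 0.00254). The gene table gives it no role. The 10 DAP arrays of esp1 were spread more widely than those of NIP3-1 or phyS11. LOC542631, which the gene table names only by its number, had 2179, 2397 and 2226 in 15 DAP embryo, against 841, 662 and 568 in 10 DAP embryo (log2 1.73, SE 0.28, adjusted p = 2.42e-05).

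**Figure D3:**
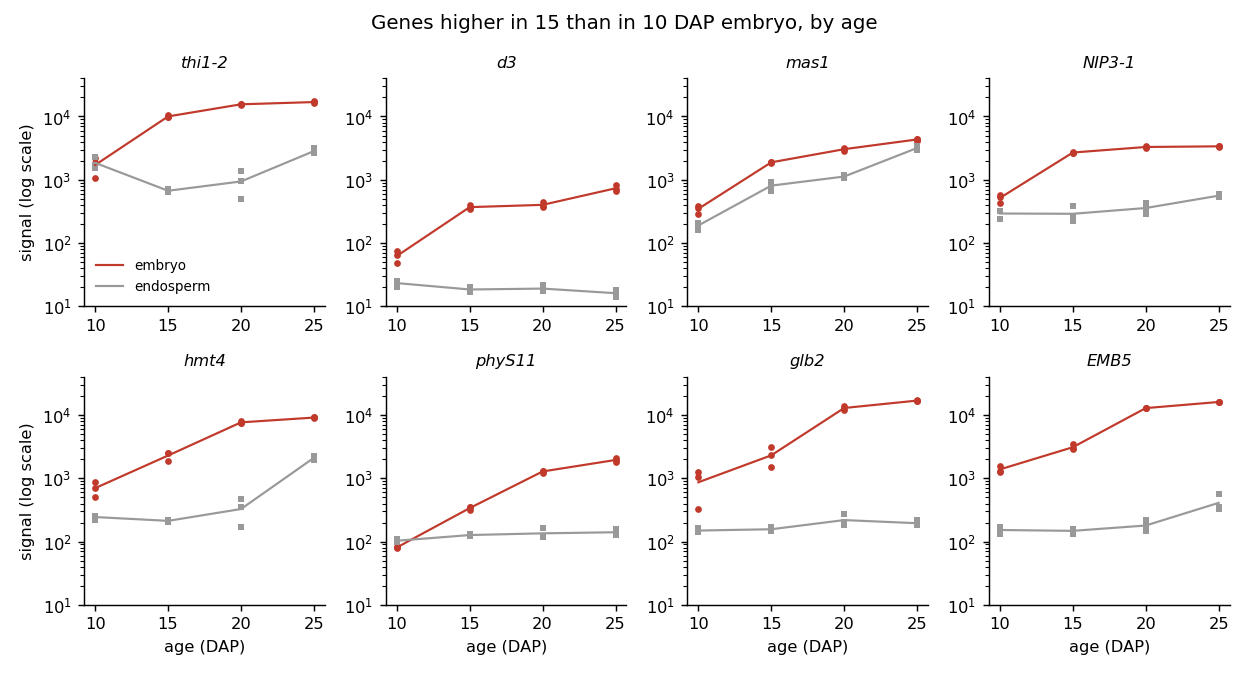
Signal by age (10, 15, 20 and 25 DAP) of 8 genes called higher in 15 than in 10 DAP embryo, on a log scale, with embryo in red and endosperm in grey; points are single arrays and lines join the means of 3. The 3 embryo arrays of 15 DAP lie above the 3 of 10 DAP in every panel, and the embryo mean at 25 DAP lies above that at 10 DAP.

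The storage and desiccation genes differed among themselves. Of 4 globulin and oleosin probe sets, 1 was called higher and 1 lower, against 3.64% and 1.87% of all. glb2, a storage globulin, had 1525, 2299.8 and 3109 in 15 DAP embryo, against 1246, 1032 and 322 in 10 DAP embryo (log2 1.57, SE 0.28, adjusted p = 7.48e-05). One of its 10 DAP arrays, replicate 3, was far below the other two, and the call was lost without that array. glb1, the main vicilin-type globulin of the embryo, had 7568, 7592 and 8395 in 15 DAP embryo, against 5575, 5778 and 4398 in 10 DAP embryo (log2 0.59, SE 0.35, adjusted p = 0.257), which did not pass the test although the arrays of the 2 ages did not overlap. ole16, an oil body protein, was high at both ages, with 20964, 22386 and 22804 in 15 DAP embryo, against 19533, 18979 and 16960.2 in 10 DAP embryo (log2 0.26, SE 0.41, adjusted p = 0.725). glb3 was called lower with overlapping arrays, 188, 1687 and 178 in 15 DAP embryo, against 2134, 749 and 895 in 10 DAP embryo (log2 -1.55, SE 0.43, adjusted p = 0.00854), and its mean in 10 DAP endosperm was 7478. Without the pair of arrays that stand apart it was -2.16, SE 0.18, adjusted p = 2.04e-10. The call was lost in the fit over only the 6 embryo arrays and without replicate 1 or 3 of 15 DAP or replicate 1 of 10 DAP.

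All 6 probe sets of the LEA and dehydrin list had non-overlapping arrays with 15 DAP above 10 DAP, and 2 of the 6 were called higher. Across all probe sets 26.8% lay this way and 3.64% were called. EMB5, a group 1 LEA protein, had 2967, 2885 and 3475 in 15 DAP embryo, against 1256, 1312 and 1589 in 10 DAP embryo (log2 1.17, SE 0.18, adjusted p = 1.03e-05). mlg3, a group 3 LEA protein, had 1629, 1646 and 1821 in 15 DAP embryo, against 826, 698 and 624 in 10 DAP embryo (log2 1.25, SE 0.36, adjusted p = 0.00975). The 3 probe sets of dhn2, a dehydrin, changed by 0.86 to 0.89 on the log2 scale, with adjusted p between 0.000745 and 0.00284, under the 2-fold limit. dhn1, another dehydrin, had 708, 593 and 697 in 15 DAP embryo, against 589, 456 and 571 in 10 DAP embryo (log2 0.31, SE 0.59, adjusted p = 0.777), and its mean was 6047 at 20 DAP and 10098 at 25 DAP. The dhn2 means, in contrast, at 25 DAP (1419, 2229 and 1955) were below those at 15 DAP (2199.9, 3405 and 3117).

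None of the 6 probe sets for regulators of this phase was called higher, and lec1 fell. vp1, the B3 transcription factor of seed maturation, had 3565, 3704 and 3512 in 15 DAP embryo, against 3107, 3414 and 3641 in 10 DAP embryo on its brightest probe set (log2 0.09, SE 0.17, adjusted p = 0.782), and the other 3 vp1 probe sets were not called. vp14, which cleaves carotenoids to start abscisic acid synthesis, had 265, 200.5 and 228 in 15 DAP embryo, against 161, 171 and 188 in 10 DAP embryo (log2 0.40, SE 0.36, adjusted p = 0.48). lec1, a subunit of the CCAAT-binding complex that specifies embryo identity, fell more than any other named gene that is lower in 10 DAP endosperm than in 10 DAP embryo except aldh5. lec1 had 967, 1053 and 983 in 15 DAP embryo, against 5138, 5055 and 5796 in 10 DAP embryo (log2 -2.41, SE 0.31, adjusted p = 8.18e-07). The arrays of each age were close together, its endosperm mean at 10 DAP was 52.7, and its embryo mean was 152 at 20 DAP and 39.1 at 25 DAP. Without the pair of arrays that stand apart its log2 fold change was -2.47, SE 0.40, adjusted p = 5.35e-05.

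Sulfur, starch and sugar genes followed. hmt4, homocysteine S-methyltransferase, which makes methionine, had 1868, 2519.9 and 2502 in 15 DAP embryo, against 885, 715 and 502 in 10 DAP embryo (log2 1.74, SE 0.21, adjusted p = 2.82e-07). It reached a mean of 9153 in embryo at 25 DAP. sir, sulfite reductase, had 2329.8, 2860.2 and 2865 in 15 DAP embryo, against 949, 769 and 799 in 10 DAP embryo on 1 probe set (log2 1.68, SE 0.41, adjusted p = 0.00277), while 2 further sir probe sets gave log2 0.01, SE 0.11 and 0.27, SE 0.22 and were not called, so the probe sets of this gene disagree. sat2, serine acetyltransferase, was called at log2 1.07, SE 0.39, adjusted p = 0.045, a call lost under 2 of the 3 other scalings, with signals under 100 taken as 100, and without any 1 array other than replicate 3 of 10 DAP. In this list of 16 probe sets, which was put together after the values were seen, 3 were called higher (18.8%, against 3.64% of all) and none lower.

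Of 22 starch synthesis probe sets, AGP2 was called higher and 7 were called lower (31.8%, against 1.87% of all). AGP2, an ADP-glucose pyrophosphorylase subunit, had 7500.1, 8854 and 8195 in 15 DAP embryo, against 3491, 3691 and 2793 in 10 DAP embryo (log2 1.31, SE 0.20, adjusted p = 7.66e-06). Its mean in 15 DAP endosperm was 669.6. AGPLS3, a large subunit of the same enzyme, was at log2 0.91, SE 0.19, adjusted p = 0.000667, just under the 2-fold limit. The 7 that were lower (sh2 with 2, and sugary2, bt1, wx1, sh1 and bt2) were each called higher in 10 DAP endosperm than in 10 DAP embryo. sh1, a sucrose synthase (log2 -1.51, SE 0.50, adjusted p = 0.0278), lost its call without the pair of arrays that stand apart (-1.07, SE 0.58, adjusted p = 0.265), without replicate 1 or 3 of 15 DAP or replicate 1 of 10 DAP, and with arrays centred on hybridization controls. gpi, glucose-6-phosphate isomerase, had 4956, 5355 and 4851 in 15 DAP embryo, against 2357, 2489 and 2361 in 10 DAP embryo (log2 1.07, SE 0.11, adjusted p = 1.87e-08), a call lost under all 3 other scalings, where it lay just under 2-fold. sus2, a sucrose synthase, was called at log2 1.17, SE 0.43, adjusted p = 0.0493. Its call was lost without any 1 of the 6 arrays.

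Cell wall genes and glutathione transferases also had members that rose. Cellulose synthases, which make the main fibre of the wall, gave several of these calls. CesA-1 had 1648, 1478 and 1375 in 15 DAP embryo, against 472, 492 and 529.9 in 10 DAP embryo (log2 1.59, SE 0.22, adjusted p = 2.28e-06). CesA-2 had 1536, 1530.1 and 1566 in 15 DAP embryo, against 662, 736 and 684 in 10 DAP embryo (log2 1.16, SE 0.24, adjusted p = 0.000439). CesA-8 was at log2 1.12, SE 0.20, adjusted p = 0.000121, and CesA-7, chosen after its values were seen, at log2 1.10, SE 0.39, adjusted p = 0.0408. Of the 56 probe sets of the aquaporin and cell wall list, which does not hold CesA-1, 5 were called higher (8.93%, against 3.64% of all) and none lower. They were CesA-2, CesA-7, CesA-8, NIP3-1 and grp3, a glycine-rich protein (log2 1.10, SE 0.39, adjusted p = 0.0394), whose call was lost without any 1 of the 6 arrays. Glutathione transferases, which join glutathione to toxic compounds, gave 4 rises: gst37 (301, 406 and 431 in 15 DAP embryo, against 157, 127 and 144 in 10 DAP embryo, log2 1.40, SE 0.18, adjusted p = 9.43e-07), gst5 (log2 1.36, SE 0.25, adjusted p = 0.000102), gst30 (log2 1.22, SE 0.28, adjusted p = 0.00149) and gst6 (log2 1.04, SE 0.25, adjusted p = 0.00275). The call of gst30 was lost without replicate 3 of 10 DAP, and that of gst6 without it, without replicate 2 of 15 DAP and under all 3 other scalings. gst12 fell, with 256, 242 and 266 in 15 DAP embryo, against 599, 627 and 609 in 10 DAP embryo (log2 -1.26, SE 0.36, adjusted p = 0.009), and had means of 1298 at 20 DAP and 4551 at 25 DAP. Its call was lost without the pair of arrays that stand apart (-1.24, SE 0.45, adjusted p = 0.0653). In the 55 probe sets of the antioxidant list 4 were called higher (7.27%, against 3.64% of all) and 1 lower (1.82%, against 1.87%).

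Of 35 heat shock and chaperone probe sets, 2 were called higher (5.71%, against 3.64% of all), hsp101 (log2 1.19, SE 0.29, adjusted p = 0.00254) and hsp18c (log2 1.08, SE 0.25, adjusted p = 0.00141), and none lower. A pair of chaperones of the endoplasmic reticulum, chosen after their values were seen, passed the adjusted p with a fall of under 2-fold. bip1 had 2243, 1739 and 1819 in 15 DAP embryo, against 3696, 3399 and 3182 in 10 DAP embryo (log2 -0.83, SE 0.09, adjusted p = 1.37e-08) and the calreticulin CRT had 4438, 4328 and 4558 in 15 DAP embryo, against 6402, 6741 and 6746 in 10 DAP embryo on 1 probe set (log2 -0.58, SE 0.10, adjusted p = 7.65e-05).

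Many falls were of genes that are higher in endosperm. Of the 329 falls, 144 (43.8%) were called higher in 10 DAP endosperm than in 10 DAP embryo, 90 (27.4%) were called lower there and 95 (28.9%) were not called. Among all 17621 probe sets 6.78% are higher and 12.7% lower in 10 DAP endosperm by the same rule. The comparison of 10 DAP endosperm with 10 DAP embryo uses the same 10 DAP embryo arrays as the falls do, so the split is a description. The 144 falls had a median log2 fold change of -1.95, and the 95 and 90 others had -1.21 and -1.20. In embryo, the median signal of the 144 was 380 at 10 DAP and 91.7, 82.1 and 74.8 at the later ages, and in endosperm 2523 at 10 DAP and 2812 at 15 DAP. The median of the other 185 falls in embryo was 775 at 10 DAP and 324, 243 and 226 at the later ages, and 347 and 182 in endosperm at 10 and 15 DAP.

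Falls of genes that are not higher in 10 DAP endosperm included proteins of DNA replication and factors of chromatin. aldh5, an aldehyde dehydrogenase, had 232, 227 and 235 in 15 DAP embryo, against 1503, 1451 and 1524 in 10 DAP embryo (log2 -2.69, SE 0.25, adjusted p = 1.82e-09), with 10 DAP endosperm at 121. PCNA, the sliding clamp of DNA polymerase, had 1684, 1575 and 1676 in 15 DAP embryo, against 4167, 4249.7 and 4319 in 10 DAP embryo (log2 -1.37, SE 0.14, adjusted p = 8.93e-09). orc2, a subunit of the origin recognition complex, had 208, 202 and 238 in 15 DAP embryo, against 568, 527 and 617 in 10 DAP embryo (log2 -1.40, SE 0.19, adjusted p = 1.85e-06). cenH3, the centromeric histone, had 286, 548 and 549.9 in 15 DAP embryo, against 983, 1004 and 1058 in 10 DAP embryo (log2 -1.20, SE 0.21, adjusted p = 9e-05) on the probe set that was called, and 1189.8, 1167 and 1175 in 15 DAP embryo, against 2117, 2068 and 2229.9 in 10 DAP embryo on a second (log2 -0.86, SE 0.11, adjusted p = 1.15e-06), under 2-fold. The call was lost without replicate 1 of the 15 DAP embryo, the lowest array on the first of these probe sets. pcna2, a second clamp gene, and the helicase subunit MCM6 were lower by under 2-fold (log2 -0.83, SE 0.24, adjusted p = 0.0106 for pcna2 and -0.91, SE 0.20, adjusted p = 0.000855 for the brightest MCM6 probe set). In the list of DNA replication and centromere genes, which was put together after the values were seen, 15 of 16 probe sets had all 15 DAP arrays below all 10 DAP arrays and 3 were called lower. Over all probe sets 22.9% lay this way and 1.87% were called lower.

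The DNA methyltransferases, a list also chosen after its values were seen, had 5 of 8 probe sets called lower, against 1.87% of all probe sets. met5 and met2 are chromomethylases, which copy methylation outside CG sites, and dmt101 is the maintenance enzyme at CG sites. met5 had 965, 935 and 1030.5 in 15 DAP embryo, against 2558, 2450.1 and 2645 in 10 DAP embryo on its brightest probe set (log2 -1.39, SE 0.14, adjusted p = 3.43e-09). Its 2 further called probe sets gave log2 -1.54, SE 0.16, adjusted p = 1.23e-08 and -1.50, SE 0.18, adjusted p = 2.04e-07. met2 had 271, 339 and 354 in 15 DAP embryo, against 1003, 867 and 847 in 10 DAP embryo (log2 -1.50, SE 0.26, adjusted p = 4.99e-05). dmt101 had 776, 689 and 659 in 15 DAP embryo, against 1456, 1602 and 1551 in 10 DAP embryo (log2 -1.12, SE 0.18, adjusted p = 2.55e-05). In contrast, met4 had 608, 587 and 646 in 15 DAP embryo, against 621, 670.2 and 663 in 10 DAP embryo (log2 -0.09, SE 0.16, adjusted p = 0.761) and dmt106 had 936, 957 and 938 in 15 DAP embryo, against 767, 764 and 731 in 10 DAP embryo (log2 0.32, SE 0.23, adjusted p = 0.354).

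Histones and other chromatin proteins were lower in part. Of 11 histone probe sets, 2 were called lower (1.87% of all were), the histone H1 set with 1614, 1717 and 1533 in 15 DAP embryo, against 4181, 3697 and 3662 in 10 DAP embryo (log2 -1.25, SE 0.36, adjusted p = 0.012) and that of cenH3. The H1 call was lost with arrays centred on hybridization controls and without the pair of arrays that stand apart. All 11 had a log2 value under 0, as had 8857 of all 17621, and in 8 all 15 DAP arrays lay below all 10 DAP arrays (22.9% of all). The H1 sets can share near-identical copies, so their values are uncertain for any 1 gene. Of 62 probe sets of nucleosome and chromatin factors, a list put together after the values were seen, 3 were called lower (4.84%, against 1.87% of all) and 2 higher (3.23%, against 3.64% of all). The falls were nfc104, nfd106, whose call was lost without any 1 of the 6 arrays, and HMG11, whose call was lost with signals under 100 taken as 100. nfc104, a histone-binding WD-repeat protein, had 457, 624 and 558 in 15 DAP embryo, against 1957, 1629.9 and 1788 in 10 DAP embryo (log2 -1.72, SE 0.23, adjusted p = 1.35e-06). mez2, an Enhancer of zeste histone methyltransferase of the Polycomb group, rose, with 785, 704 and 664 in 15 DAP embryo, against 208, 259 and 242 in 10 DAP embryo (log2 1.60, SE 0.18, adjusted p = 4.11e-08). Of its relatives, mez3 had means of 43.5 at 15 DAP and 15.9 at 10 DAP, too low to order though called higher, and mez1 had 908, 832 and 746 in 15 DAP embryo, against 894, 1159 and 1280.3 in 10 DAP embryo (log2 -0.41, SE 0.24, adjusted p = 0.231). Of the Polycomb genes fie1 and fie2, fie1 fell, as given with the endosperm genes, and fie2 was at log2 -0.48, SE 0.18, adjusted p = 0.0588.

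The mitotic cyclins were lower by less than 2-fold. cyc1 had 706, 640.2 and 699.7 in 15 DAP embryo, against 1248, 1259 and 1196 in 10 DAP embryo (log2 -0.86, SE 0.22, adjusted p = 0.00501). cyc2 had 779, 777 and 758 in 15 DAP embryo, against 1062, 1288 and 1268 in 10 DAP embryo (log2 -0.64, SE 0.17, adjusted p = 0.00455), and cyc3 had 904, 743 and 818 in 15 DAP embryo, against 1132, 1359 and 1409 in 10 DAP embryo (log2 -0.66, SE 0.23, adjusted p = 0.033). For each, all 15 DAP arrays lay below all 10 DAP arrays, and in embryo their means were 159.7, 179 and 135 at 25 DAP. The D-type cyclins, which act at the start of the cycle, were not called, with log2 0.50, SE 0.19, adjusted p = 0.0636 for cycD1 and 0.49, SE 0.22, adjusted p = 0.119 for cycD2. TUBB2, a beta tubulin, had 339.8, 262 and 297 in 15 DAP embryo, against 733, 859.7 and 1035 in 10 DAP embryo (log2 -1.54, SE 0.23, adjusted p = 6.6e-06). RBR2, a retinoblastoma-related gene, was called higher at log2 1.14, SE 0.25, adjusted p = 0.000932 from a mean of 62.3 at 10 DAP, and the call was lost with signals under 100 taken as 100. Of the 43 probe sets of the cell division list, 1 was called higher (2.33%, against 3.64% of all) and 2 lower (4.65%, against 1.87%). In 20 of the 43 all 15 DAP arrays lay below all 10 DAP arrays and in 10 above them, against 22.9% and 26.8% of all probe sets.

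**Figure D4:**
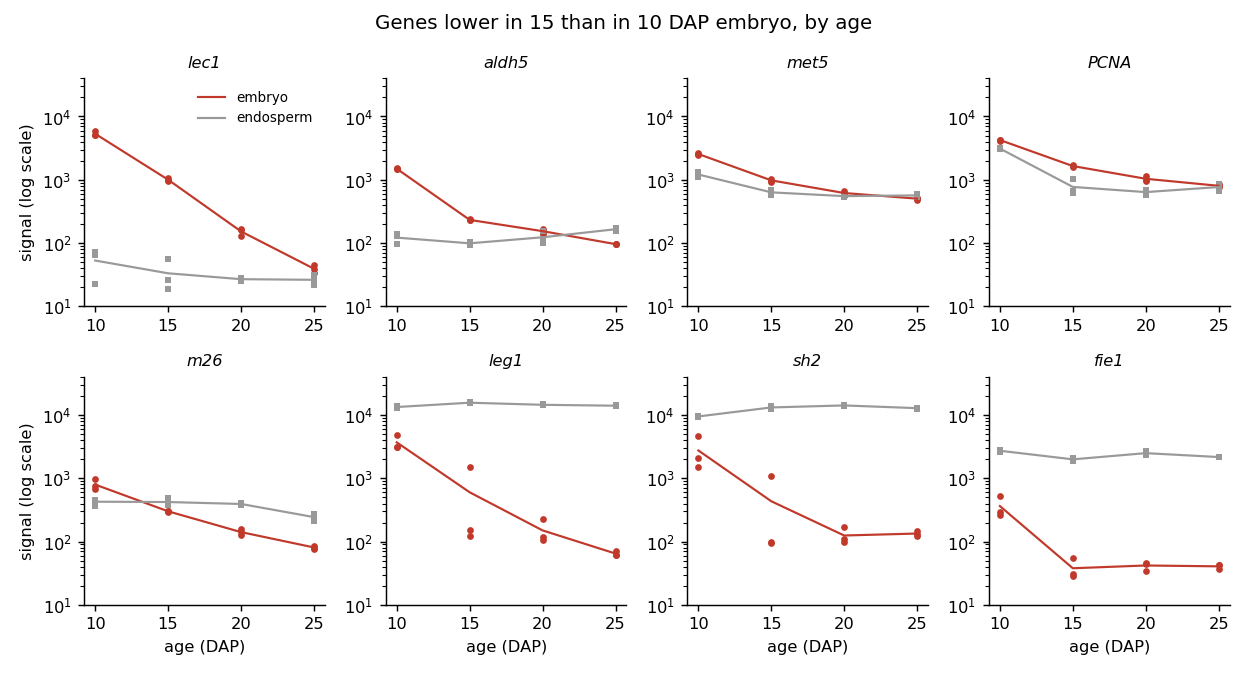
Signal by age (10, 15, 20 and 25 DAP) of 8 genes called lower in 15 than in 10 DAP embryo, on a log scale, with embryo in red and endosperm in grey; points are single arrays and lines join the means of 3. In lec1, aldh5, met5 and PCNA the embryo lies above endosperm at 10 DAP and its arrays are close together, while in leg1, sh2 and fie1 endosperm lies above embryo at all ages, and in leg1 and sh2 replicate 2 of 15 DAP lies apart from the other 2 arrays.

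Of 32 MADS-box probe sets, the flower and organ regulators, 6 were called lower (18.8%, against 1.87% of all probe sets) and none higher (3.64% of all). m26 had 305, 295 and 303 in 15 DAP embryo, against 671, 761 and 959 in 10 DAP embryo (log2 -1.39, SE 0.14, adjusted p = 3.38e-09), and its embryo mean was 80.8 at 25 DAP. m27 (log2 -2.82, SE 0.62, adjusted p = 0.00097, or -1.48 with signals under 100 taken as 100) had 33.6, 79.9 and 23.2 in 15 DAP embryo, against 239, 152 and 600.3 in 10 DAP embryo. Replicate 3 was its highest 10 DAP array, and its mean was 4497 in silk and 1466 in ear. M7, m19, M14 and m5, the other 4, had no 15 DAP array above 100. M7 had 187, 85.2 and 407 in 10 DAP embryo, against means of 9286 in silk and 4842 in ear. Its call was lost with signals under 100 taken as 100, and without replicate 3 of 15 DAP or replicate 3 of 10 DAP. Whether m27 and M7 signal came from embryo cells was not tested. M14 and m5 were chosen after their values were seen. yab10, of the YABBY family of lateral organ genes, had 1460.2, 1552 and 1419 in 15 DAP embryo, against 3248, 3163 and 3408 in 10 DAP embryo (log2 -1.15, SE 0.37, adjusted p = 0.0235), and its call was lost without any 1 array other than replicate 2 of 15 DAP. yab9 was at log2 -0.91, SE 0.33, adjusted p = 0.0478, and all 4 YABBY probe sets, a list chosen after its values were seen, had all 15 DAP arrays below all 10 DAP arrays (22.9% of all probe sets). kn1, the homeobox gene that marks the shoot meristem, had 1276, 1011 and 1152 in 15 DAP embryo, against 1755, 1955 and 2713 in 10 DAP embryo (log2 -0.88, SE 0.47, adjusted p = 0.193), not called. Of 23 homeobox and meristem probe sets only ns1 was called lower (4.35%, against 1.87% of all), from a mean of 75.3 at 10 DAP, too low to order.

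Among named genes whose arrays did not overlap and were all at 100 or more at 10 DAP, the 5 largest falls were all called higher in 10 DAP endosperm than in 10 DAP embryo. leg1, a legumin, had 154, 1532 and 121 in 15 DAP embryo, against 4839, 3150.0 and 3141 in 10 DAP embryo (log2 -3.57, SE 0.47, adjusted p = 8.29e-07), and 10 DAP endosperm had a mean of 13434. sh2, the large subunit of endosperm ADP-glucose pyrophosphorylase, had 99.3, 1109 and 95.8 in 15 DAP embryo, against 4707, 2068 and 1518 in 10 DAP embryo (log2 -3.48, SE 0.48, adjusted p = 1.69e-06). In both genes replicate 2 of 15 DAP embryo stood far above the other 15 DAP arrays, yet below every 10 DAP array. Without it and replicate 1 of 10 DAP the values were log2 -4.53, SE 0.27, adjusted p = 7.53e-14 for leg1 and -4.18, SE 0.22, adjusted p = 6.41e-15 for sh2. The smaller SE follows in part from leaving out the arrays on which such genes stood apart. fie1, the Polycomb gene transcribed from the maternal copy in endosperm, had 30.6, 54.6 and 28.3 in 15 DAP embryo, against 533, 293 and 267 in 10 DAP embryo (log2 -3.26, SE 0.22, adjusted p = 8.14e-13, or -1.79 with signals under 100 taken as 100). PBF, the zein gene activator, had 26.8, 62.2 and 29.5 in 15 DAP embryo, against 507, 226 and 140.0 in 10 DAP embryo (log2 -2.78, SE 0.30, adjusted p = 2.46e-08, or -1.33). sugary2, starch synthase IIa, had 239, 398 and 240.0 in 15 DAP embryo, against 4389.9, 1376 and 1311 in 10 DAP embryo (log2 -2.81, SE 0.42, adjusted p = 7.1e-06). bt1, the amyloplast carrier of ADP-glucose, had 168, 348 and 176 in 15 DAP embryo, against 1955, 870.2 and 503 in 10 DAP embryo (log2 -2.12, SE 0.28, adjusted p = 8.62e-07). Without the pair of arrays that stand apart, fie1 was at log2 -3.25, SE 0.20, adjusted p = 1.76e-13, PBF at -2.66, SE 0.25, adjusted p = 3.84e-09, sugary2 at -2.49, SE 0.46, adjusted p = 0.000282 and bt1 at -1.94, SE 0.22, adjusted p = 1.3e-07. Replicate 1 was the highest 10 DAP array for each of these 6 genes. Their 15 DAP embryo signal was 0.918% to 28.8% of that in 15 DAP endosperm. The highest share was of sugary2, whose endosperm mean was 7875 at 10 DAP and 1015 at 15 DAP. Probe sets of sh2, fie1 and PBF are among the 21 endosperm-restricted ones, so these falls are not separate from that check.

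Further named falls were also of genes called higher in 10 DAP endosperm than in 10 DAP embryo. Asn1, an asparagine synthetase, had 226, 1156 and 218 in 15 DAP embryo, against 2988, 1719 and 1821 in 10 DAP embryo (log2 -2.45, SE 0.35, adjusted p = 3.53e-06), with replicate 2 of 15 DAP apart from the others. Without the pair of arrays it was log2 -2.995, SE 0.245, adjusted p = 1.47e-10. bap2 had 33.3, 39.8 and 28.2 in 15 DAP embryo, against 408, 114 and 286 in 10 DAP embryo (log2 -2.83, SE 0.39, adjusted p = 2.27e-06, or -1.25 with signals under 100 taken as 100, and -2.56, SE 0.46, adjusted p = 0.000247 without the pair). meg2, a small peptide of the transfer layer, had 83.2, 90.8 and 68.4 in 15 DAP embryo, against 555, 193 and 539 in 10 DAP embryo (log2 -2.27, SE 0.41, adjusted p = 9.77e-05, or -1.95 with that floor, and -2.09, SE 0.50, adjusted p = 0.00445 without the pair). Scl1 had 51.6, 85.8 and 43.5 in 15 DAP embryo, against 418, 164 and 131 in 10 DAP embryo (log2 -1.85, SE 0.29, adjusted p = 1.59e-05, or -1.05 with that floor, and -1.63, SE 0.26, adjusted p = 5.55e-05 without the pair).

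o2, the bZIP activator of zein genes, had overlapping arrays, 185, 391 and 132 in 15 DAP embryo, against 553, 380.2 and 391 in 10 DAP embryo (log2 -1.04, SE 0.21, adjusted p = 0.000363). Its call was lost without replicate 1 or 3 of 15 DAP or replicate 1 of 10 DAP. Without the pair of arrays that stand apart it was -1.30, SE 0.16, adjusted p = 4.57e-07. wx1, granule-bound starch synthase, also overlapped, with 133, 789 and 122 in 15 DAP embryo, against 1327, 576 and 504 in 10 DAP embryo (log2 -1.64, SE 0.38, adjusted p = 0.00181), and was -2.08, SE 0.21, adjusted p = 1.27e-08 without them. Its call was lost in the fit over only the 6 embryo arrays.

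Of 14 zein probe sets, 6 were called lower (42.9%, against 1.87% of all) and none higher, and no zein set had non-overlapping arrays with 15 DAP lower. The calls were of dzs18, an 18 kDa delta zein, and gz27, the 27 kDa gamma zein. dzs18 had 153, 8700.4 and 195 in 15 DAP embryo, against 10419, 3240.0 and 5476 in 10 DAP embryo on its brightest probe set (log2 -3.16, SE 0.75, adjusted p = 0.00202). gz27 had 733, 6872 and 775 in 15 DAP embryo, against 10798, 5374 and 6864 in 10 DAP embryo (log2 -2.22, SE 0.42, adjusted p = 0.000166). Replicate 2 of 15 DAP thus had a dzs18 signal above 2 of the 3 arrays of 10 DAP, while replicates 1 and 3 had under 200. Without the pair of arrays that stand apart the values were -4.61, SE 0.38, adjusted p = 1.92e-10 and -3.01, SE 0.20, adjusted p = 9.09e-13, and in the fit over only the 6 embryo arrays both calls were lost. A further gz27 probe set was not called and was higher at 15 DAP on all arrays (log2 0.30, SE 0.15, adjusted p = 0.177). gz50, a 50 kDa gamma zein, had 106, 2953 and 122 in 15 DAP embryo, against 1384, 182 and 322 in 10 DAP embryo (log2 -0.36, SE 0.70, adjusted p = 0.778), and was -1.09, SE 0.38, adjusted p = 0.0572 without the pair. The 6 alpha zein sets were not called with all arrays, and without the pair z1C1_4 (-2.05, SE 0.38, adjusted p = 0.00036) and z1D_2 (-1.53, SE 0.38, adjusted p = 0.0062) were called lower. The pair was picked on markers that include zeins, so the zein values without it are a description. Sets that match several zein copies cannot be given to 1 gene. A z1C2 set is among the 21 endosperm-restricted probe sets, so the zein values are not separate from that check. The part of carried endosperm in the zein falls was not tested.

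The same step in endosperm allowed a test of whether embryo and endosperm changed differently. Endosperm had 1192 probe sets called higher at 15 than at 10 DAP (6.76%) and 945 called lower (5.36%). The change was called higher in embryo than in endosperm for 995 probe sets (5.65%) and lower in embryo for 1003 (5.69%). With arrays centred on their hybridization controls the counts were 1670 and 493, so the balance of the 2 directions rests on the scaling. In the LEA and dehydrin list the difference was called higher in embryo for 5 of 6 probe sets, for EMB5 at log2 1.21, SE 0.25, adjusted p = 0.000536 and for dhn2 at 2.32, SE 0.27, adjusted p = 7.2e-08 on 1 set. For the starch list it was called lower in embryo in 10 of 22 and higher in 1, and for zeins lower in 9 of 14 and higher in 1. lec1 had a fall in embryo that differed from its change in endosperm (-0.65), with a difference of -1.76, SE 0.44, adjusted p = 0.0036, and d3 a rise that did (2.92, SE 0.35, adjusted p = 1.4e-07). For PCNA (endosperm -2.05, difference 0.68, SE 0.20, adjusted p = 0.0102), met5 (-0.94, -0.45, SE 0.19, adjusted p = 0.0877), met2 (-1.58, 0.08, SE 0.36, adjusted p = 0.906), orc2 (-1.57, 0.17, SE 0.27, adjusted p = 0.708) and TUBB2 (-1.65, 0.11, SE 0.32, adjusted p = 0.857) the endosperm also moved down, and no difference of at least 2-fold was called. cyc1 and cyc3 went down further in endosperm (-2.52 and -3.01), with a called difference of 1.66, SE 0.32, adjusted p = 0.000173 and 2.35, SE 0.32, adjusted p = 1.5e-06. sugary2, bap2 and meg2 were also called lower in endosperm (-3.02, -2.19 and -1.88). No difference was called for them (0.21, SE 0.59, adjusted p = 0.847, -0.64, SE 0.56, adjusted p = 0.444 and -0.39, SE 0.58, adjusted p = 0.678). For leg1, sh2, fie1, PBF, bt1, Asn1 and Scl1 the endosperm change was not called and the difference was called lower in embryo.

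**Figure D5:**
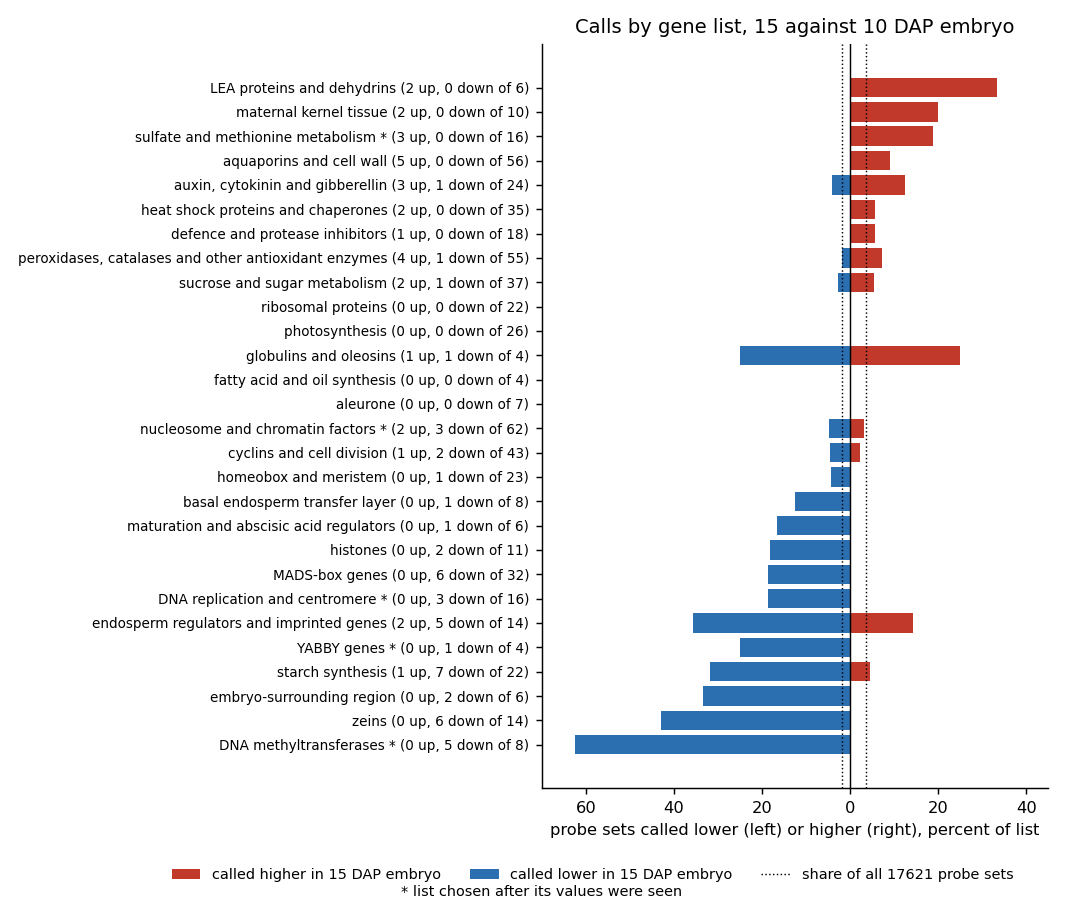
Share of probe sets called higher (red, to the right) and lower (blue, to the left) in 15 DAP embryo for each gene list of at least 4 probe sets, in percent of the list, with the counts beside each name. Dotted lines mark the 3.64% higher and 1.87% lower among all 17621 probe sets; a star marks lists chosen after their values were seen.

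Several lists had no call at all. No call was made among 22 ribosomal protein probe sets (median log2 -0.16, with 17 of 22 lying wholly below, as did 22.9% of all probe sets), 26 of photosynthesis, 4 of fatty acid and oil synthesis, 7 of aleurone genes and the single lipid transfer protein set. Of the oil genes, fad7, a plastid fatty acid desaturase, had 1741, 1698 and 1875 in 15 DAP embryo, against 892, 841 and 1225 in 10 DAP embryo (log2 0.86, SE 0.25, adjusted p = 0.011), under the 2-fold limit. Against 3.64% of all called higher, among 18 defence and protease inhibitor sets the cystatin cc7 was called higher (log2 1.08, SE 0.11, adjusted p = 1.69e-08), a call lost without replicate 2 of 10 DAP, and among 10 sets of the maternal tissue list a2 (log2 1.15, SE 0.19, adjusted p = 2.16e-05) and 1 of p1 (log2 1.52, SE 0.23, adjusted p = 9.43e-06, or 0.14 and not called with signals under 100 taken as 100) were called higher, both genes of pigment synthesis.

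The largest changes of all belong to probe sets with no gene name here. The probe set with the largest rise had 3546, 4492 and 4137 in 15 DAP embryo, against 160.3, 196 and 129.7 in 10 DAP embryo (log2 4.66, SE 0.18, adjusted p = 1.11e-18), and means of 11245 at 20 DAP and 14965 at 25 DAP. The next largest rise was of 2028, 1800.0 and 1955 in 15 DAP embryo, against 119, 154 and 86.3 in 10 DAP embryo (log2 4.05, SE 0.23, adjusted p = 2.39e-14). The probe set with the largest fall had 49.5, 307 and 47 in 15 DAP embryo, against 7515, 2723 and 7841 in 10 DAP embryo (log2 -5.93, SE 0.41, adjusted p = 1.29e-12), with a mean of 18023 in 10 DAP endosperm, and is 1 of the 21 endosperm-restricted probe sets. A further probe set of the same transcript cluster by its ID had 28.4, 101 and 22.6 in 15 DAP embryo, against 2469, 774 and 2585 in 10 DAP embryo (log2 -5.41, SE 0.36, adjusted p = 7.17e-13). All 4 had arrays that did not overlap between the ages.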

How the data were processed

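Total RNA of 14 B73 tissues, 3 arrays each, was extracted with Trizol, labelled with biotin by the GeneChip 3′ IVT Express kit and hybridized to Affymetrix maize arrays. The deposited values are linear signal intensities made by the authors with MAS5. The MAS5 version, its scaling target and the detection calls are not given in the sources used here, and the number of arrays, not a count of reads, limits the precision. No column of values went without a sample (0 columns).

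Signals were taken as log2, and 113 control probe sets were left out, so 17621 of 17734 remained, 66 of them reporter gene probe sets. In R 4.3.3, limma 3.58.1 fitted 1 mean per tissue to the 42 arrays (empirical Bayes with an intensity trend, Benjamini-Hochberg adjustment over all 17621). To be called, a probe set had to differ by 2-fold or more with its adjusted p below 0.05. SE is the standard error of the log2 difference. The difference of the embryo and endosperm changes was tested in the same fit. On simulated data of 17621 probe sets the comparison of 15 with 10 DAP embryo recovered 87% of changes of 1.5 and 99% of changes of 2.5 on the log2 scale, with 2 false calls. The difference of changes recovered 70% and 91%, with 10 false calls.

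Gene names came from the platform's gene table, in which 1452 probe sets have 1 symbol and 1 has several. Of the 1452, 1377 were found in the RefSeq table (NAM-5.0), which was used for names only. Named genes are the 15 largest rises and falls with arrays that do not overlap and a signal of at least 100 on all arrays of the higher group, up to 4 called members per direction of each gene list, and every member of the globulin, LEA, maturation, zein and main cyclin lists. The comparison, the members and the lists were chosen with earlier results of these data known, sugary2 was added to the starch list by hand, and 5 lists were put together after the values were seen. Other genes named in the text as not called were also chosen after their values were seen. Replicate numbers were checked for pairing and treated as names only. Alternatives were other scalings, offsets, filters, fits and arrays left out.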

Additional observations from a re-analysis of the deposited data

Results flagged for a closer look

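The change with age differed between embryo and endosperm at many probe sets. It was called higher in embryo for 995 and lower in embryo for 1003 of 17621 (limma, interaction contrast). Of the 80 named probe sets called in embryo, the difference was called for 47. Over all probe sets it was called higher in embryo for 5.65% and lower for 5.69%. The 80 were selected on their embryo change, which is part of the difference, so more such calls follow from the selection. Of the 47, 9 were called in opposite directions in the embryo and in the endosperm. 5 of the 9 rose in embryo and fell in endosperm. thi1-2, of vitamin B1 synthesis, changed by 2.61 in embryo and -1.45 in endosperm on the log2 scale, a difference of 4.06. The differences of the others were 2.77 for gst30, 2.54 for gst37, 2.44 for AGP2 and 2.42 for grp3. The other 4 fell in embryo and rose in endosperm, wx1 with a difference of -3.16, sh1 of -2.85, glb3 of -2.69 and o2 of -2.30. In these 4 the 10 DAP endosperm was called above the 10 DAP embryo, and the part of carried endosperm in their embryo values was not tested.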

How the results depend on the processing

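The counts of 641 rises and 329 falls, and of 995 and 1003 for the difference from endosperm, stayed within 1.5 times under quantile normalization (593, 387, 1231 and 966), centring on array medians (524, 405, 976 and 1026), an offset of 32, signals under 100 taken as 100, a filter on low signals, a fit without the intensity trend and a fit over only the arrays compared (658, 317, 1153 and 1088). Centring on hybridization controls gave 482 and 379 for the embryo and moved the difference from endosperm to 1670 and 493. The cause was not tested. Without a fold threshold the counts were 2248, 1697, 1963 and 2278. Leaving out each embryo array in turn gave 536 to 659 rises, 293 to 379 falls, and 923 to 1015 and 887 to 1039 for the difference. Without replicate 2 of 15 DAP and replicate 1 of 10 DAP together, an alternative chosen after seeing the data, there were 513 rises and 343 falls, of which 479 and 278 were also called with all arrays. Without the probe sets called higher in 10 DAP endosperm than in 10 DAP embryo there were 185 falls, and without those called higher in 10 DAP endosperm than in embryos of 20 and 25 DAP, also chosen after seeing the data, there were 124. The second of these follows in part from the fall itself, since falling genes stayed low at 20 and 25 DAP.

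Same-numbered arrays of the 2 ages had correlations of -0.41, -0.44 and -0.07 in their deviations from the group means, which gave no sign of pairing by number. The check cannot exclude pairing. Deviations sum to 0 within each age, and replicate 2 of 15 DAP with replicate 1 of 10 DAP, the pair that stands apart, had 0.48. With the replicate number as a block in the fit over only the arrays compared, the counts were 654, 302, 1153 and 1078.

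Of the 80 named probe sets that were called, 55 kept the call under every alternative apart from the fits on only 6 arrays, and none of the 80 turned its direction. Of the named probe sets that were not called, gz50 and 4 alpha zein sets changed sign under some alternatives. The medians of 3 lists, all within 0.1 of 0, changed sign with the scaling (photosynthesis, sucrose and sugar metabolism, and antioxidant enzymes). Signals under 100 limit what can be said of fie1, PBF, d3, cyclotide and the smaller MADS-box genes.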
